A study of Mus musculus with 6 samples.

Results

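The plasma cell genes other than immunoglobulins were a set of 10 genes, chosen by symbol from the 21606 rows of a table of raw counts per gene. They were divided by their known expression. The plasma-restricted members, largely limited in marrow to plasma cells and related B-lineage or dendritic cells, were Jchain, Mzb1, Sdc1, Pou2af1, Fkbp11 and Derl3 (6 genes). The broadly expressed members, used by secreting cells of many kinds, were Xbp1, Creld2, Edem1 and Txndc5 (4 genes). RNA came from bone marrow cells of C57BL/6 mice (genotype WT) with high aldehyde dehydrogenase activity (ALDHbr), a fraction known to be rich in immature cells. The 2 groups were female and male, with 3 libraries each. No treatment is named in the labels, and the age of the mice, the number of animals behind a library and the presence of other alleles are not named there either. Whether the 3 libraries of a sex came from separate animals is not stated, so p-values measure the spread between libraries, which may be technical. In bulk RNA, fewer plasma cells and less RNA per plasma cell cannot be told apart.

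Plasma cells are the end stage of the B lineage and secrete antibody at a high rate. The transcription factor XBP1, made active by the unfolded protein response of the endoplasmic reticulum (ER), widens the secretory apparatus of these cells, with chaperones, disulfide isomerases and the machinery that removes misfolded protein. JCHAIN and MZB1 serve antibody assembly directly, SDC1 (CD138) is the surface protein most used to identify plasma cells, and POU2AF1 (OCA-B) is a coactivator that binds octamer factors on antibody promoters. Pou2af1 is expressed in B cells too, and Jchain and Mzb1 also in plasmacytoid dendritic cells.

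Total counts ran from 1199551 to 1475224 in the female libraries and from 679724 to 880074 in the male ones. Every male library was thus shallower than every female one, which leaves male values of low-count genes on fewer counts. The 10 genes together took 0.121% to 0.147% of a library's total. Single values rest on 1 count (Derl3 in male replicate 2) to 1052 counts (Jchain in female replicate 2). Levels are given as CPM, counts per 1e+06 counts of the 8460 tested genes, after scaling by the trimmed mean of M values (TMM). A difference is male minus female on the log2 scale. The progenitor surface protein gene Cd34 had 336 ± 39.1 (SD, n = 3) CPM in females and 366 ± 44.5 in males, and Aldh2, an aldehyde dehydrogenase, 406 ± 35.98 and 453 ± 41.8. None of the 6 genes of the progenitor list passed edgeR's test. At an unadjusted p under 0.05, edgeR called 2 higher in males and 0 lower, against 6.83% and 4.50% of all tested genes. The 2 were Flt3, with 75.5 ± 3.69 CPM in females and 97.9 ± 6.83 in males, and Aldh1a1, with 7.99 ± 2.54 and 16.4 ± 6.82. DESeq2 called 1 higher unadjusted and 0 after adjustment.

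The promoters shown here, from RefSeq (GRCm38.p6), belong to Pou2af1, the one member to pass edgeR's test between the sexes, and to Derl3 and Creld2. The latter were the only members with a match to the ER stress response element (ERSE). Each runs from 250 bases before to 50 bases after the start site on the gene's strand. Capitals mark the motif match: the 8 bases TGACGTGG in Pou2af1 (chr9:51213440-51213739, plus strand), and both blocks of ERSE in Derl3 (chr10:75893148-75893447, plus strand) and Creld2 (chr15:88819396-88819695, plus strand).
Pou2af1: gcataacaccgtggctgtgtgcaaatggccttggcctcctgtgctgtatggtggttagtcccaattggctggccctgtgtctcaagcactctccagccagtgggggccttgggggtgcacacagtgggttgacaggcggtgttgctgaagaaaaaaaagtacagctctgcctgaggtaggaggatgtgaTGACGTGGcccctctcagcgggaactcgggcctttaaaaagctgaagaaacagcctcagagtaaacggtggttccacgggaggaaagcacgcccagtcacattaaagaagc
Derl3: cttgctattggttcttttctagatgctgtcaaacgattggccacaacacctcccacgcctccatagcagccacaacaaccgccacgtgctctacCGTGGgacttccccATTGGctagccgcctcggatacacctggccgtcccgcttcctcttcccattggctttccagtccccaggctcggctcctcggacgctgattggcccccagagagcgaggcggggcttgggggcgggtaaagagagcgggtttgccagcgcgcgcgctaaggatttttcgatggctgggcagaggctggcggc
Creld2: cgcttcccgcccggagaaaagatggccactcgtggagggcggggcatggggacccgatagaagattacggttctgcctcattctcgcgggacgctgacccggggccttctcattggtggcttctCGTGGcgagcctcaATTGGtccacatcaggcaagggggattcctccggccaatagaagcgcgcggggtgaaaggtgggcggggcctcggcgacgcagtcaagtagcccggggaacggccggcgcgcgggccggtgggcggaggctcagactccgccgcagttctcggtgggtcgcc

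ERSE (CCAAT and CCACG with 9 bases between), a binding site of ATF6 and XBP1, ended 138 bases before the start of Derl3 and 108 bases before that of Creld2, in both on the strand opposite the gene. TGACGTGG, the core of an XBP1-binding element, lay 61 to 54 bases before the start of Pou2af1 and in 1 of 3 windows of Txndc5. Windows were held for 9 members (12 windows, with 3 for Txndc5 and 2 for Fkbp11), and none for Mzb1. Searched on both strands of all 32851 windows of that length, ERSE matched in 0.119%, TGACGTGG in 0.676%, the octamer ATGCAAAT in 1.74% and ERSE-II (ATTGG and CCACG with 1 base between) in 0.0365%. No member window held the octamer or ERSE-II, and none held more than 1 match, although the CCACG of ERSE can overlap the reverse complement of TGACGTGG. A match describes these letters only. Of the 3 genes printed, Pou2af1 passed the test between the sexes, Creld2 did not, and Derl3 had too few counts for it.

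Comparing males with females asked which of these genes differ by sex in these cells. Pou2af1 fell in males and was the only member to pass edgeR's quasi-likelihood test (threshold 0.05 on the p adjusted over 8460 genes by Benjamini-Hochberg). The other tested plasma-restricted genes had differences between -0.09 and -0.55 on the log2 scale and did not pass. Among the broad members, Xbp1 and Creld2 lay close to 0 and Txndc5 at -0.32, and none passed. Of all tested genes, 0.154% were called lower in males by the same rule and 0.426% higher, 0.579% in all (13 and 36 genes, or 23 and 29 with library-size scaling). Leaving out male replicate 1 gave 78 lower and 337 higher, leaving out male replicate 3 gave 4 and 19, and leaving out female replicate 2 gave 8 lower. Of the members, 9 were tested, 8 of them did not pass, and Derl3 was left untested for its low counts.

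Pou2af1 (chromosome 9, 51213708 to 51240080, GRCm38) had 15.3, 15.6 and 16.2 CPM in females (replicates 1, 2 and 3, the order used throughout) and 2.33, 4.99 and 4.82 in males. These came from 19, 23 and 21 counts against 2, 3 and 4. The male counts were under the filter's minimum of 10, so Pou2af1 entered the test through its female libraries alone. Every male library lay below every female one. The log2 fold change was -1.96 ± 0.42 (SE; 95% interval -2.83 to -1.10; edgeR adjusted p = 0.0193). From summed counts alone the female to male ratio was 3.99 (95% exact counting interval 1.97 to 9.13). The female SD of 0.440 CPM is smaller than the 3.43 CPM that counting error alone would give. The call was lost without female replicate 1, 2 or 3 (edgeR adjusted p = 0.0537, 0.0919 and 0.0970) and without male replicate 2 or 3 (0.0519 and 0.116), while the fold stayed between -1.66 and -2.16; it was also lost by limma-voom (0.0794) and by DESeq2 (0.175).

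Jchain, the peptide that joins antibody units into polymers (chromosome 5, 88519809 to 88527891), had 717, 713 and 723 CPM in females and 528, 715 and 780 in males. Male replicate 1 was the lowest and male replicate 3 the highest of all 6, so the sexes overlapped. The difference was -0.09 ± 0.13 (SE; 95% interval -0.37 to 0.19; edgeR adjusted p = 0.863), and without male replicate 1 it was 0.06. The male SD of 131 CPM was above the 29.97 CPM of counting error, whereas the female SD of 5.08 was below its 23.2.

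Mzb1, a chaperone of antibody assembly in the ER, had 12.1, 26.4 and 21.6 CPM in females and 19.8, 13.3 and 20.5 in males. Its lowest and highest values were both female, and its difference of -0.15 (95% interval -0.79 to 0.49) turned to 0.12 without female replicate 2. Sdc1, the heparan sulfate proteoglycan CD138 (chromosome 12, 8771323 to 8793715), had 25.8, 28.4 and 20.01 CPM in females and 18.6, 19.96 and 16.9 in males. All 3 male libraries lay below the female ones by a margin that was narrow at female replicate 3. Its difference was -0.44 ± 0.26 (SE; 95% interval -0.98 to 0.11), and the interval holds 0.

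Fkbp11, a prolyl isomerase of the secretory pathway (chromosome 15, 98724366 to 98728198), had 31.4, 38.6 and 33.9 CPM in females and 18.6, 31.6 and 22.9 in males. Male replicate 2 lay within the female range and the other male libraries below it. Its difference was -0.55 ± 0.24 (SE; edgeR unadjusted p = 0.0299, adjusted p = 0.368). Derl3, an ER membrane protein of misfolded protein degradation (chromosome 10, 75893413 to 75895941), had 7, 9 and 5 counts in females and 3, 1 and 3 in males, or 5.64, 6.096 and 3.85 against 3.49, 1.66 and 3.61 CPM. The female to male ratio of its summed counts was 1.71 with a 95% exact counting interval of 0.700 to 4.76, so no difference was detectable at this depth.

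**Figure D1:**
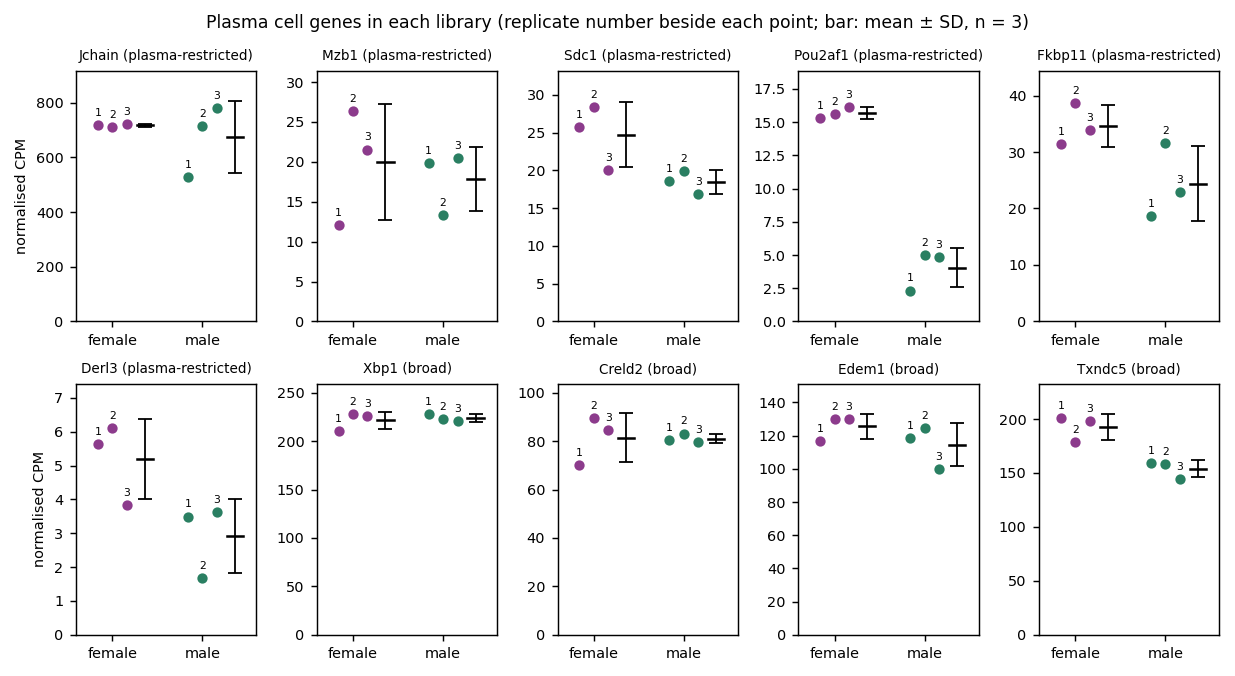
Normalised CPM of the 10 genes (vertical axes from 0, 1 panel a gene) in 3 female and 3 male libraries, with the replicate number above each point and the mean ± SD beside each group. Pou2af1 separates the sexes widely (15.3 to 16.2 against 2.33 to 4.99 CPM), Jchain is spread in males (528 to 780 CPM) and Xbp1 is nearly level in all 6 libraries.

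Xbp1, the transcription factor itself (chromosome 11, 5520659 to 5525893), had 211, 228 and 226 CPM in females and 228, 223 and 221 in males. The 6 libraries differed by 1.08 times at most, and the difference was 0.02 ± 0.12 (SE; 95% interval -0.23 to 0.26), below 0 under upper-quartile scaling (-0.0016) and library-size scaling (-0.0756), with no filter (-0.0156) and without female replicate 1 (-0.0176). Creld2, an ER stress-induced disulfide isomerase (chromosome 15, 88819646 to 88826683), had 70.1, 89.4 and 84.7 CPM in females and 80.4, 83.2 and 79.5 in males, a difference of -0.01 (95% interval -0.32 to 0.29) that lay above 0 without female replicate 2 or 3. The male libraries of both genes sat inside or next to the female range.

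Edem1, which directs misfolded glycoproteins to degradation (chromosome 6, 108828641 to 108859356), had 117, 130.05 and 130.07 CPM in females and 119, 125 and 100.01 in males. Male replicate 3 was the lowest and the remaining male libraries lay within the female range, with a difference of -0.14 (95% interval -0.42 to 0.13). Txndc5, a disulfide isomerase of the ER (chromosome 13, 38500079 to 38528824), had 201, 179 and 199 CPM in females and 160, 158 and 145 in males. These groups did not overlap, yet the difference of -0.32 ± 0.12 (SE) did not pass (edgeR unadjusted p = 0.0134, adjusted p = 0.278).

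**Figure D2:**
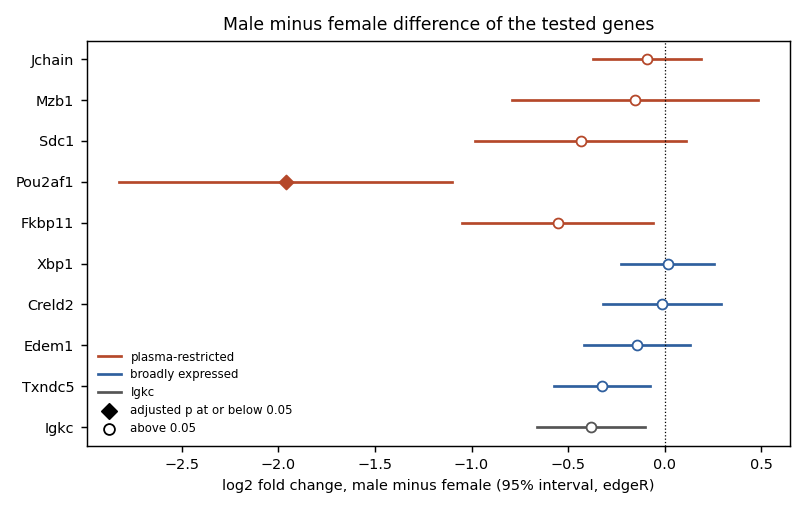
Log2 fold change, male minus female, of the 9 tested members and Igkc with 95% intervals from edgeR; a filled diamond marks an adjusted p at or below 0.05. Only Pou2af1 (-1.96) is marked, and the intervals of Xbp1 and Creld2 lie around 0.

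Male libraries lay wholly below female ones for 3 of the 9 tested members, Sdc1, Pou2af1 and Txndc5, and for 8.03% of all tested genes. They lay wholly above for none of the 9, against 7.57% of all. Over the 5 tested plasma-restricted genes the median difference was -0.44, with 5 of 5 below 0, and over the 4 broad genes it was -0.08, with 3 of 4 below 0. Over all 8460 tested genes it was -0.003, with 50.7% below 0. Pou2af1, counted among the 3 and the 5, entered the test through its female libraries alone. At an unadjusted p under 0.05, edgeR called 3 members lower and 0 higher, against 4.50% and 6.83% of all genes, and DESeq2 and limma-voom called none of the 9 after adjustment.

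The summed counts set both kinds of gene against each other within a library, with no test since the members were chosen with earlier results known. Plasma-restricted genes had 135, 132 and 128 counts per 100 counts of the broad genes in females and 101, 134 and 156 in males, so the sexes overlapped. Jchain supplied 86.1% to 91.9% of the plasma-restricted counts. Without Jchain the ratio was 15.1, 18.4 and 14.9 in females and 10.7, 12.1 and 12.6 in males, and every male library lay below every female one. Leaving out Pou2af1 as well, it was 12.5, 15.9 and 12.4 against 10.3, 11.3 and 11.7, with the same order and a smaller gap. The summed broad genes had 621 ± 20.7 (SD, n = 3) CPM in females and 573 ± 24.97 in males, and the plasma-restricted genes without Jchain 100.3 ± 13.2 and 67.7 ± 4.39.

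**Figure D3:**
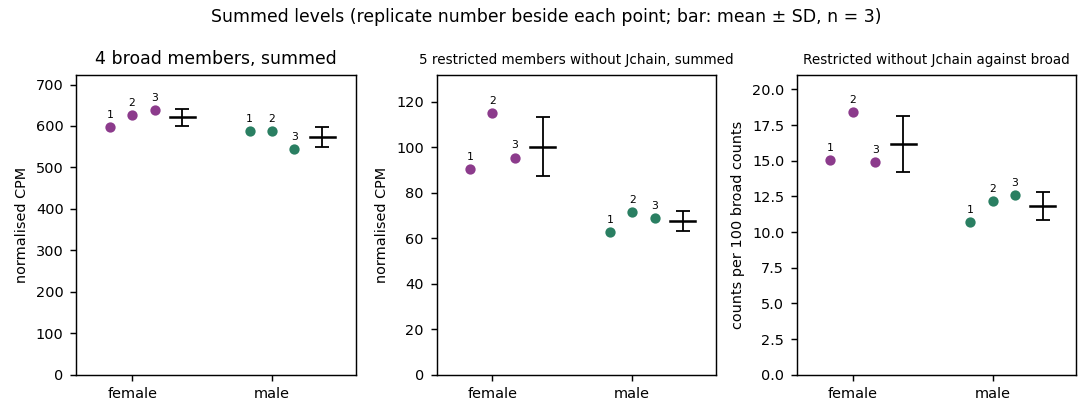
Summed CPM of the 4 broad members (left), summed CPM of the 5 plasma-restricted members without Jchain (middle) and counts of the latter per 100 counts of the former (right), for each library with its replicate number and the mean ± SD by sex. In the right panel the male libraries, 10.7 to 12.6, lie below the female ones, 14.9 to 18.4.

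Igkc, the constant gene of the kappa light chain (chromosome 6, 70726435 to 70726966), was the antibody constant gene with the most counts and served as the reference for ratios within a library. In bulk RNA such a ratio compares cell types where a member is also expressed outside plasma cells. It had 7221, 8264 and 7004 CPM in females and 5445, 5581 and 6255 in males, a difference of -0.38 ± 0.14 (SE) that did not pass (edgeR adjusted p = 0.258), although it passed with library-size scaling (adjusted p = 0.0280). Since Igkc was lower in all male libraries, a gene at a constant level gains on it in males: 40.9% of all tested genes had all 3 male ratios above all 3 female ones, and 0.296% all below. A two-sided exact permutation test of 3 against 3 libraries cannot give less than p = 0.1, so it can call no difference, and its p-values are unadjusted.

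Per 1000 Igkc counts, Jchain had 99.3, 86.2 and 103 counts in females and 96.9, 128 and 125 in males. Male replicates 2 and 3 were the highest, and male replicate 1 lay among the females (difference of log2 ratios 0.27, exact permutation p = 0.3). Pou2af1 had 2.12, 1.89 and 2.31 counts per 1000 in females and 0.428, 0.894 and 0.771 in males. It was the only member with all male ratios below the female ones (difference -1.45, exact permutation p = 0.1).

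Sdc1 had 3.57, 3.44 and 2.86 counts per 1000 Igkc counts in females and 3.42, 3.58 and 2.70 in males, so its ratio overlapped where its CPM had not. Fkbp11 averaged 4.62 ± 0.247 (SD, n = 3) and 4.25 ± 1.23, Mzb1 2.65 ± 0.847 and 3.10 ± 0.645, and Derl3 0.689 ± 0.123 and 0.506 ± 0.183. The ratios of these 4 genes overlapped between the sexes (exact permutation p from 0.4 to 1.0).

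Xbp1 and Creld2 had higher ratios in every male library. Xbp1 had 29.2, 27.5 and 32.2 counts per 1000 in females against 41.9, 39.9 and 35.3 in males, and Creld2 9.70, 10.8 and 12.1 against 14.8, 14.9 and 12.7 (differences 0.40 and 0.38, both at the smallest possible exact permutation p, 0.1). Edem1 and Txndc5 overlapped, with differences of 0.24 and 0.06. Thus 2 of the 10 members had all male ratios above, next to 40.9% of all tested genes. With Ighm in place of Igkc as the reference, the Xbp1 and Creld2 differences were 0.22 and 0.21 (exact permutation p = 0.3 and 0.2). Neither gene then separated the sexes fully.

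**Figure D4:**
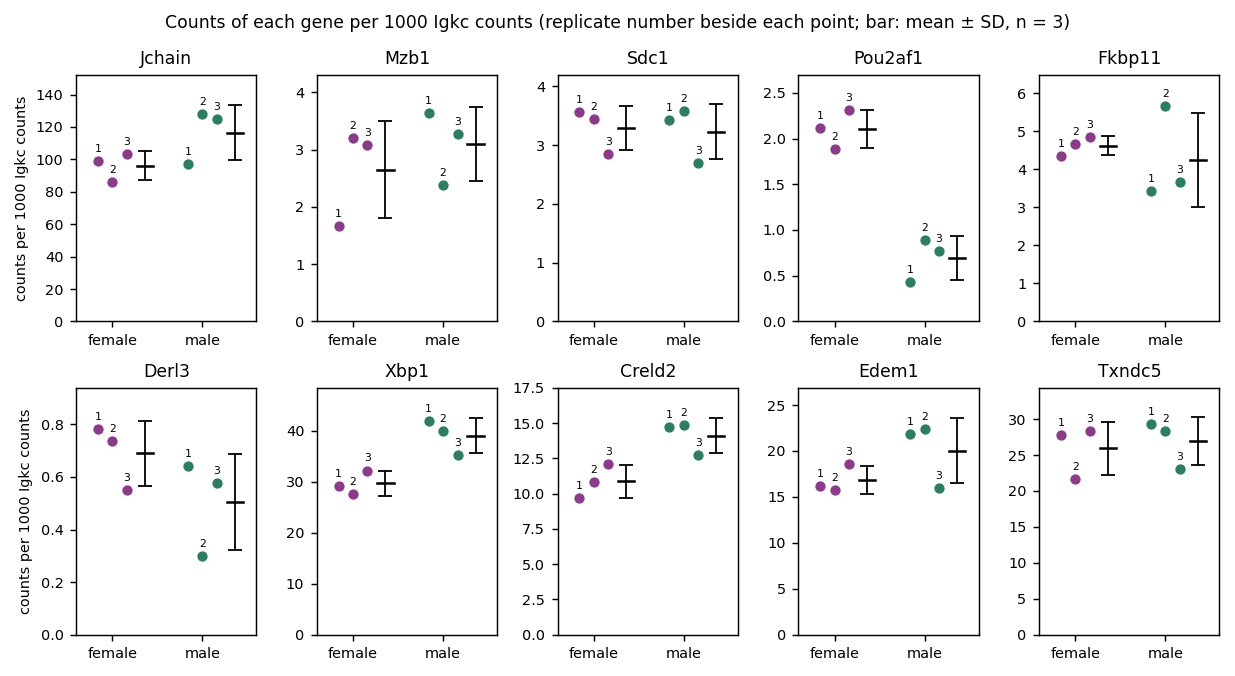
Counts of each gene per 1000 Igkc counts in the same library (vertical axes from 0), by sex, with replicate numbers and the mean ± SD beside each group. Pou2af1 is lower in all male libraries (0.428 to 0.894 against 1.89 to 2.31), Xbp1 and Creld2 are higher in all of them, and the other 7 genes overlap.

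The ratio was also tested with edgeR across all genes, with each library's Igkc count as its library size, an analysis chosen after the data were seen. By it, 0.201% of genes were lower in males relative to Igkc and 21% higher, and the median gene stood 0.37 higher. Pou2af1 fell relative to Igkc as well, with a log2 fold change of -1.59 ± 0.49 (SE; edgeR adjusted p = 0.0119), a call lost without male replicate 1 (-1.33, edgeR adjusted p = 0.0872). No other member passed. Relative to Igkc, Jchain stood at 0.28 (95% interval -0.05 to 0.60), Sdc1 at -0.05 (-0.65 to 0.55) and Xbp1 at 0.40 (0.06 to 0.73; adjusted p = 0.0785).

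Antibody constant genes were counted by the same test. Of 10 tested, 4 fell in males and 6 did not pass, with a median of -0.53 and all 10 below 0. Iglc1 (lambda chain) fell by 1.43 on the log2 scale, Ighg1 (IgG1) by 1.19, Igha (IgA) by 0.97 and Ighg2b (IgG2b) by 0.68; Ighg2b was not called without female replicate 1 or 2 or male replicate 3. Ighg3 (IgG3) had the lowest fold, -2.15, with 115.2, 76.5 and 6.93 CPM in females and 15.1, 6.65 and 20.5 in males, and was called only with no filter, with library-size scaling, with the replicate block and without female replicate 3 or male replicate 1; library-size scaling also called Igkc, 6 genes in all. The IgG genes resemble each other, so the division of reads between them is uncertain. Ighm, the IgM heavy chain, which like IgA is joined by the J chain into polymers, had 3659 ± 461 (SD, n = 3) CPM in females and 3174 ± 334 in males and did not pass (log2 fold change -0.20, edgeR adjusted p = 0.615). With Ighm in place of Igkc as the reference, the Jchain ratio differed by 0.09 and the Pou2af1 ratio by -1.63.

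Pou2af1 is also expressed in mature B cells, whose markers were given the same test. Their summed level, most of it Cd79b and Cd37, was 184 to 208 CPM in females and 125 to 171 in males over 12 genes, none of them at 0 in all libraries. Of the 3 tested, Ms4a1 (CD20) fell by 2.36 on the log2 scale and 2 did not pass, Cd79b and Cd37. Cd37 had its highest value, 89.7 CPM, in male replicate 1, and Cd79a, too low for the test, had 2.90 ± 1.65 (SD, n = 3) CPM in females and 2.92 ± 1.09 in males. Ms4a1 had 16.9, 14.2 and 10.8 CPM in females and 2.33, 3.33 and 2.41 in males, a separation like that of Pou2af1. Like Pou2af1, Ms4a1 entered the test through its female libraries alone. It was not called by DESeq2, by limma-voom, or without female replicate 1 or 2 or male replicate 3. The part of B cells in the Pou2af1 difference was not tested.

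Markers of plasmacytoid dendritic cells, which share Jchain and Mzb1, summed to 1497 to 1700 CPM in females and 1518 to 1599 in males. These were 12 genes, none at 0 throughout. Most of the sum was Irf8, so it says little about low markers such as Siglech. None of the 6 tested passed by edgeR or DESeq2 (1 higher at an unadjusted p under 0.05 by either). Irf8, a transcription factor of dendritic cells and monocytes, had 1114 ± 68.6 (SD, n = 3) and 1066 ± 67.2 CPM, and Bst2 173 ± 9.06 and 188 ± 43.2. Siglech, a defining surface receptor, had 9.82 ± 4.21 and 7.55 ± 3.58 CPM.

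Of 13 further plasma cell genes in the table, 5 reached the depth for a test and none passed by edgeR or DESeq2 (0 at an unadjusted p under 0.05 by either). With no filter, edgeR called 1 of the 13 higher and 0 lower at an unadjusted p under 0.05, and none after adjustment. The median difference of these 5 was 0.09, and it does not cover Prdm1, Irf4 or Tnfrsf17, which were too low for the test. Prdm1, which encodes the regulator BLIMP1 that drives plasma cell formation, had 8 counts in all 6 libraries together, and Irf4, which acts with it, had 21. Tnfrsf17, the receptor BCMA of long-lived plasma cells, had 19. By sex, Prdm1 had 1.46 ± 0.617 (SD, n = 3) CPM in females and 0.943 ± 0.853 in males, Irf4 3.51 ± 1.27 and 2.95 ± 2.67, and Tnfrsf17 2.70 ± 0.594 and 3.46 ± 1.13. Also too low for the test, Ell2 had 5.64, 7.45 and 2.31 CPM in females and 8.15, 11.6 and 13.3 in males, all males above. Eaf2 had 6.44, 5.42 and 6.16 against 3.49, 4.99 and 1.21, all males below. Sec11c, a signal peptidase subunit, had 259 ± 17.4 (SD, n = 3) CPM in females and 309.6 ± 65.9 in males, and Prdx4, a peroxiredoxin of the ER, 129.85 ± 19.5 and 151 ± 48.0.

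All 30 genes of the unfolded protein response and ER quality control were tested, and none passed by edgeR or DESeq2, with a median difference of -0.04. At an unadjusted p under 0.05 both tools called 2 higher and 0 lower, against 6.83% and 4.50% of all tested genes by edgeR. Without male replicate 1, edgeR called 1 higher after adjustment, Ssr4, a gene named after its values were seen. Hspa5 (BiP), the main ER chaperone and a target of the same response as Creld2, had 1372 ± 239 (SD, n = 3) CPM in females and 1443 ± 73.2 in males, and Calr, calreticulin, 2185 ± 147 and 1897 ± 75.0. Calr was 1 of 3 genes of this list with every male library below every female one, and 2 had every male library above. Over all tested genes these shares were 8.03% and 7.57%. The 4 primary granule genes of immature myeloid cells, cells that also secrete, did not pass by edgeR or DESeq2 (0 and 2 at an unadjusted p under 0.05). Mpo had 7639 ± 224 CPM in females and 6332 ± 284 in males, and Prtn3 2966 ± 66.8 and 2853 ± 272.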

How the data were processed

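RNA of 6 libraries was measured by BRB-seq, a bulk method that barcodes each sample with its reverse transcription primer and amplifies all samples together, per the labels' protocols. The authors deposited an unnormalised table of raw counts for every gene. The submitters' processing notes list featureCounts 2.0.1, HISAT2 2.2.1, Trim Galore 0.6.7, DESeq2 and UMI-tools, and the builds GRCm38 and GRCh38, without roles. The handling of duplicate molecular identifiers and of strand was not given in the sources used here. Counting intervals cover counting error only. A deposited barcode list names 16 samples in the pool, of which 10 are not analysed here. Genes that overlap a member in GENCODE M21 had at most 8 counts where the table held them.

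With edgeR 4.0.16 in R 4.3.3, filterByExpr (minimum count 10, total 15) left 8460 of 21606 genes; TMM scaling and the quasi-likelihood F test followed, with Benjamini-Hochberg adjustment at 0.05. The SE is the log2 fold change over the root of F. Ratios to Igkc used a pseudocount of 0.5 on the log2 scale and exact permutation tests (SciPy 1.17.1). limma 3.58.1 and DESeq2 1.42.0, without independent filtering, were alternatives. On simulated data for the male minus female comparison (8460 genes, 200 changed), 17.2%, 83.3% and 100% of changes of 0.5, 1 and 2 on the log2 scale were recovered. Of 146 genes called there, 5 had not been changed. The changed genes were drawn at random from all tested genes, so these shares are not specific to members with low counts. Named genes were all members and Igkc. In every other list they were the genes past the threshold, at most 4, or else the 2 with the highest level. Ighm, Ighg3, Iglc2, Iglc3, Cd79a, Cd79b, Cd37, Siglech, Prdm1, Irf4, Tnfrsf17, Ell2, Eaf2, Flt3, Aldh1a1 and Ssr4 were added after their values were seen. The members and lists were chosen with earlier results of these data known.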

Additional observations from a re-analysis of the deposited data

How the results depend on the processing

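The number of genes higher in males, 36, was 81 with no filter and 56 with the replicate block; the number lower, 13, was 23 with library-size scaling, 35 with no filter, 7 by DESeq2, 8 by limma-voom and 22 with the replicate block. Leaving out single libraries gave 19 to 337 higher and 4 to 78 lower, the extremes without male replicate 3 and without male replicate 1; without female replicate 2, 8 were lower. The cause was not tested.

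The Pou2af1 fold stayed below 0 in all 14 alternatives, with adjusted p from 0.0028 to 0.175, and lost its call in 7. No other member passed in any. Differences near 0 changed sign: Xbp1 under upper-quartile scaling (-0.0016), library-size scaling (-0.0756) and no filter (-0.0156), and Creld2 with the replicate block (0.000298). With single libraries left out, Jchain ran from -0.211 to 0.0623, Mzb1 from -0.396 to 0.116, Xbp1 from -0.0176 to 0.0391 and Creld2 from -0.108 to 0.0646. Derl3 could be fitted only with no filter (-0.78, edgeR adjusted p = 0.761).

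Among log2 ratios to Igkc, signs changed for Sdc1 with a pseudocount of 1 (0.0267) and for Txndc5 with Ighm as the reference (-0.116). With single libraries left out, Mzb1 ran from -0.0049 to 0.452, Sdc1 from -0.0964 to 0.125, Fkbp11 from -0.358 to 0.0020 and Txndc5 from -0.0648 to 0.166. With Igkc as the library size, Sdc1 changed sign without female replicate 1 (0.0061) or male replicate 3 (0.0805), and Txndc5 without female replicate 2 (-0.0664) or male replicate 1 (-0.0191). Pou2af1 relative to Igkc passed with all libraries (-1.59) and without female replicate 1, 2 or 3 or male replicate 2 or 3 (-1.52 to -1.75).

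The log2 ratio of plasma-restricted to broad counts, male minus female, was -0.04, with -0.18 to 0.13 when single libraries were left out, -0.45 without Jchain, -0.43 without Jchain and Derl3 and -0.285 without Jchain and Pou2af1. Correlations of deviations were 0.03, 0.03 and 0.05 for libraries of the same replicate number, and from -0.033 to -0.0006 for different numbers. All are small, and they do not decide whether replicate numbers pair the libraries. With the replicate block, Pou2af1 kept its call (-1.96, adjusted p = 0.0320 by edgeR). Members of under 50 counts per library carry wide intervals, which limits what can be detected.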
